A study of Monascus purpureus with 6 samples.

Results

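The genes described here are those at the 2 ends of each of the 8 large scaffolds of the *M. purpureus* YY-1 genome assembly. The gene identifiers carry a scaffold and a running number, so that evm.TU.C8.575 (written C8.575 from here on) is gene 575 of scaffold C8. On each of the scaffolds C1 to C8, the 15 genes with the lowest and the 15 genes with the highest numbers were taken, which gave 240 genes at 16 ends out of 7491 rows in the table. A gene was kept if it had a count of at least 10 in at least 3 of the 6 libraries, and 227 of the 240 genes were. The choice by position used no fold change. The filter uses counts, and 5 genes passed it through the YY-1 libraries alone, with a count of at least 10 in 0 winter libraries (C4.902, C8.575, C8.576, C8.577 and C8.578). Such genes had to differ between the strains to be kept. The end with the low numbers is called the first end and the one with the high numbers the last end. The numbers give an order and no coordinates, and whether a scaffold ends at a telomere, or whether further sequence lies beyond the outermost numbered gene, was not analysed here.

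The compared strains were winter, a hygromycin-resistant insertional mutant that was selected for low citrinin production after protoplasts of YY-1 had been transformed with the plasmid pHPH, and YY-1, its parent without the cassette. The winter strain is 1 transformant, so that its inserted cassette and any other difference between this isolate and its parent cannot be told apart. RNA was taken from mycelia during pigment production, with 3 libraries (a, b and c) for winter and 3 for YY-1. The total counts per library were 15194009 to 16004947 in winter and 9661178 to 10595943 in YY-1.

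In filamentous fungi, the regions near chromosome ends are known for genes of secondary metabolism, secreted enzymes and genes restricted to few species, and they are often packed in chromatin that keeps transcription low. Neighbouring genes of one pathway can be switched together, as in gene clusters for polyketides and terpenes. For this reason a count along the scaffold, gene by gene and end by end, shows whether changes come singly or in blocks. The files pair no gene with a sequence or a function. Roles are therefore given only for genes that the study names or that stand in the rows at hand of its list of Gene Ontology (GO) terms, and these rows hold only genes that the authors called higher in winter, so they say nothing about directions.

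The unit of level is CPM, the count of a gene as its part of the library total brought to one size for all libraries, after TMM scaling, which adjusts the totals by a trimmed mean of the ratios between libraries. Fold changes are log2 ratios of winter over YY-1, with the standard error (SE) and an adjusted p from edgeR's quasi-likelihood test, which was fitted over all 7355 genes that passed edgeR's filter on low counts. A gene is called higher or lower where the adjusted p was below 0.05. All 227 kept end genes were among the tested genes. The RNA came from whole mycelium, in which fewer cells expressing a gene and less RNA per cell cannot be told apart.

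Of the 227 end genes, 40 were higher in winter (17.6%), 87 were lower (38.3%) and 100 were not called. The lower genes include the 5 that were kept through YY-1 alone and had to differ, all lower by more than 2-fold. With a count of at least 10 in winter libraries alone, 0 genes were kept. Of all tested genes, 22.5% were called higher, 25.5% lower and 48.0% in either direction, and in the remainder of the same 8 scaffolds the shares were 22.6% higher and 24.8% lower of 7027 genes. The end genes thus held a larger share of lower genes and a smaller share of higher genes than the remainder. The median log2 fold change was -0.29 at the ends and -0.02 in the remainder, and the median absolute value was 0.66 at the ends and 0.47 in the remainder. Changes of more than 2-fold were called for 21 higher and 59 lower end genes, together 35.2% of them, beside 20.2% in the remainder and 20.9% of all tested genes (8.92% higher and 12.0% lower). All winter libraries lay on one side of all YY-1 libraries for 62.6% of the end genes, beside 57.8% of all tested genes. These shares are counts of genes, which are not independent replicates, and no test over genes was made of the difference between ends and remainder.

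The share of lower genes was larger at the last ends (44.4%) than at the first ends (32.8%). Both shares were above the 24.8% of the remainder. At the last ends, 12 of 108 kept genes were higher and 48 were lower in winter, with a median log2 fold change of -0.52. The median was below 0 at all 8 last ends. For the last end of C8 it was -0.16, and 0.04 without C8.575 to C8.578, which were kept through YY-1 alone. For the last end of C2 it was -0.03, and 0.08 without YY-1 replicate c. At the first ends, 28 of 119 kept genes were higher and 39 were lower, the median was -0.11, and 4 of the 8 medians were below 0. Since the numbering of a scaffold can start from either side, first and last are names of the assembly and not of the chromosome.

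**Figure D1:**
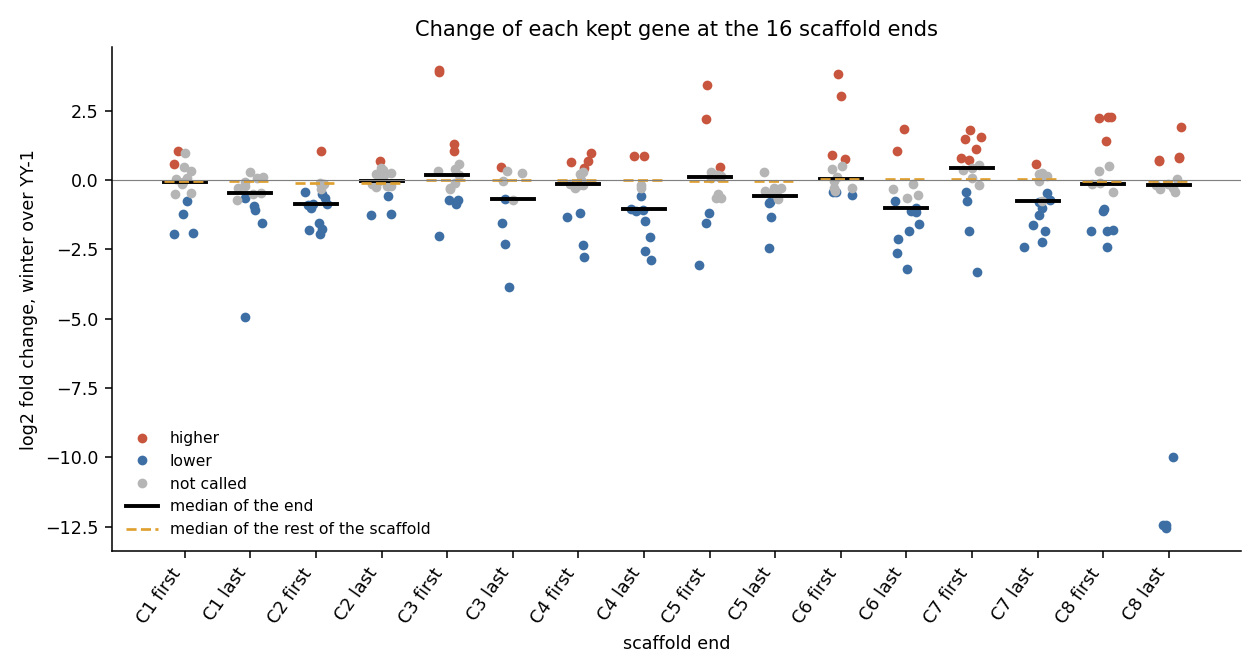
Log2 fold change (winter over YY-1) of each kept gene at the 16 scaffold ends, coloured by its call, with the median of the end as a black bar and the median of the remainder of the same scaffold as a dashed bar. The medians of all 8 last ends lie below 0, that of C8 only with the lowest 4 points. These points are genes with 0 to 3 counts per winter library that were kept through YY-1 alone. Their plotted values depend on the prior count of the fit.

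Set against the remainder of its own scaffold, the share of genes called lower was larger at 13 of the 16 ends. The share called and changed by more than 2-fold was larger at 13 of 16 ends as well. Both counts include the last end of C8, where the 4 lower genes were C8.575 to C8.578, kept through YY-1 alone. Its share of lower genes was 26.7%, beside 26.3% in the remainder of C8. The share called higher was larger at 6 of 16 ends, of which 5 were first ends. Some differences in the share of lower genes were small. It was 26.7% (4 of 15 genes) at the first ends of C1, C3, C4 and C7. In the remainders of these scaffolds it was 24.7%, 21.9%, 23.9% and 22.9%. The ends with the lowest medians were the last end of C4 (-1.06, 8 of 12 kept genes lower), the last end of C6 (-1.02, 9 of 15 lower), the first end of C2 (-0.87, 11 of 15 lower) and the last end of C7 (-0.77, 9 of 15 lower). The medians of the remainder of these scaffolds lay between -0.11 and 0.02. The highest median was that of the first end of C7 (0.42), where 6 genes were higher and 4 were lower. Between these ends lay some whose genes did not move together. At the last end of C2, 11 of 15 genes were not called, the median was -0.03 and 13.3% changed by more than 2-fold, beside 19.5% in the remainder of C2. At the first end of C8 the median was -0.15, but 4 genes were higher and 6 lower, all of them by more than 2-fold.

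The share of called genes did not fall off evenly from the outermost genes inward. Of the genes 1 to 5 from an end, 11 were higher and 28 lower of 77 tested (14.3% and 36.4%). Of all tested genes, 22.5% were higher and 25.5% lower. Of the genes 6 to 10 from an end, 11 were higher and 27 lower of 74 tested (14.9% and 36.5%). Of the genes 11 to 15 from an end, 18 were higher and 32 lower of 76 tested (23.7% and 42.1%). In the next 15 genes inward, 48 were higher and 70 lower of 236 tested (20.3% and 29.7%), with a median of -0.06. Of these genes, 28.8% were called and changed by more than 2-fold. This last share was 22.0% for the genes 31 to 50 from an end and 19.4% for genes over 100 from an end. The shares called higher and lower were 20.4% and 28.3% for the genes 31 to 50 from an end. They were 22.4% and 27.9% for the genes 51 to 100 from an end, and 22.9% and 24.0% for genes over 100 from an end.

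**Figure D2:**
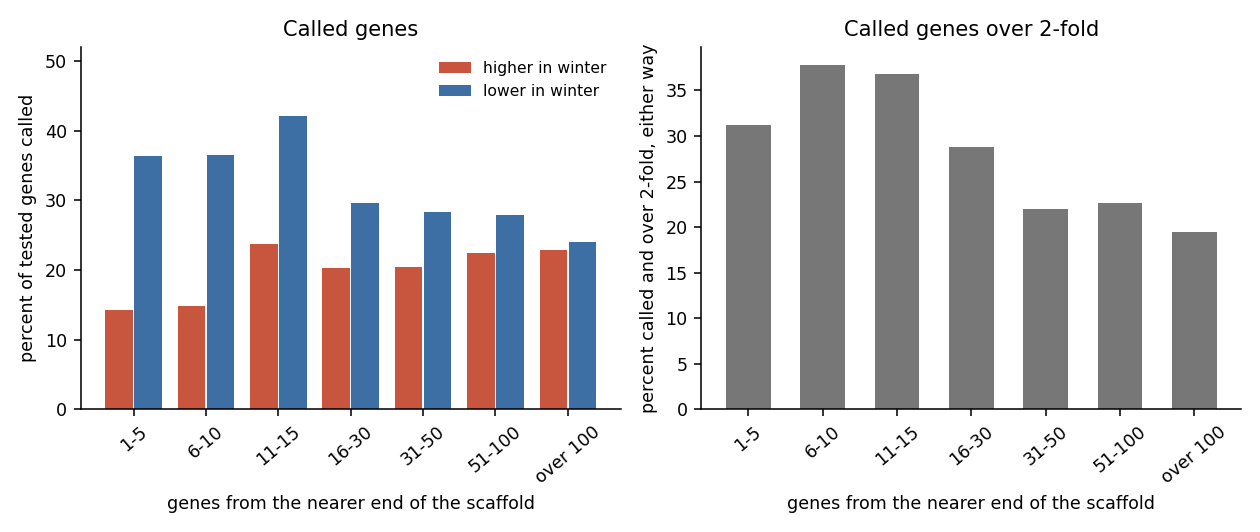
Percent of tested genes of C1 to C8 called higher or lower in winter (left) and called with a change of more than 2-fold (right), by the number of genes from the nearer scaffold end. The share of lower genes is 36.4% for the outermost 5 genes, 42.1% for genes 11 to 15 and 24.0% for genes over 100 from an end, and the bars carry no error because genes are not replicates.

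The strongest difference stood at the outermost 4 genes of the last end of C8, where winter had almost no reads. C8.575, the gene with the largest change by the naming rule, had 0, 1 and 1 counts in winter libraries a, b and c, against 4234, 3150 and 2817 counts in YY-1. C8.578, the outermost gene, had 0, 0 and 1 counts in winter, against 377, 359 and 275 counts in YY-1. The genes between them were singled out after their values had been seen. C8.576 had 0 counts in each winter library, against 533, 685 and 496 counts in YY-1. C8.577 had 1, 3 and 0 counts in winter, against 6116, 5728 and 5384 counts in YY-1, which made it the most abundant of the 4 in YY-1 with 602, 491 and 559 CPM. Over the 3 libraries of a strain, the 4 genes had 7 counts in winter and 30154 counts in YY-1, or 0.0993% of all YY-1 counts.

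From the pooled CPM, C8.575 was 7336-fold lower in winter, with a 95% counting interval of 2030 to 60586. C8.577 was 6195-fold lower (2419 to 22739) and C8.578 1454-fold lower (260 to 57492). C8.576 was at least 822-fold lower, computed against a floor of 3 counts over the winter group. These intervals cover counting error only. All 4 genes were kept through the YY-1 libraries alone, so that their p-values describe genes that had to differ and are no further support. The edgeR adjusted p was 5.85e-08 for C8.575, 2.93e-07 for C8.576, 5.85e-08 for C8.577 and 1.58e-07 for C8.578. With 3 libraries per strain, the smallest two-sided p of an exact permutation test is 0.1.

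The step was sharp along the scaffold. C8.574, the neighbour on the inner side, had 7.35, 5.45 and 5.55 CPM in winter, against 5.22, 5.48 and 7.17 CPM in YY-1, and its values overlapped (log2 fold change 0.04 ± 0.22 SE, edgeR adjusted p = 0.892). None of the 6 genes C8.569 to C8.574 was called, with log2 fold changes between -0.45 and 0.04. The 4 genes had the lowest fitted fold changes of all 7355 tested genes, values that depend on the prior count of the fit. Since the 4 genes were kept through YY-1 alone, this rank is no further support. In the whole table, 6 genes had 4 or fewer counts over the winter libraries together and a mean of at least 2 CPM in YY-1. The other 2 of them, scaffold00029.2 and scaffold00029.3, are neighbours by number on a small scaffold, had 0 counts in each winter library and averaged 5.27 and 4.76 CPM in YY-1. Only RNA counts were measured, the DNA of winter was not analysed here, and the site of the inserted cassette was not analysed here. Without the 4 genes, the median of the last end of C8 was 0.04, against -0.16 with them.

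**Figure D3:**
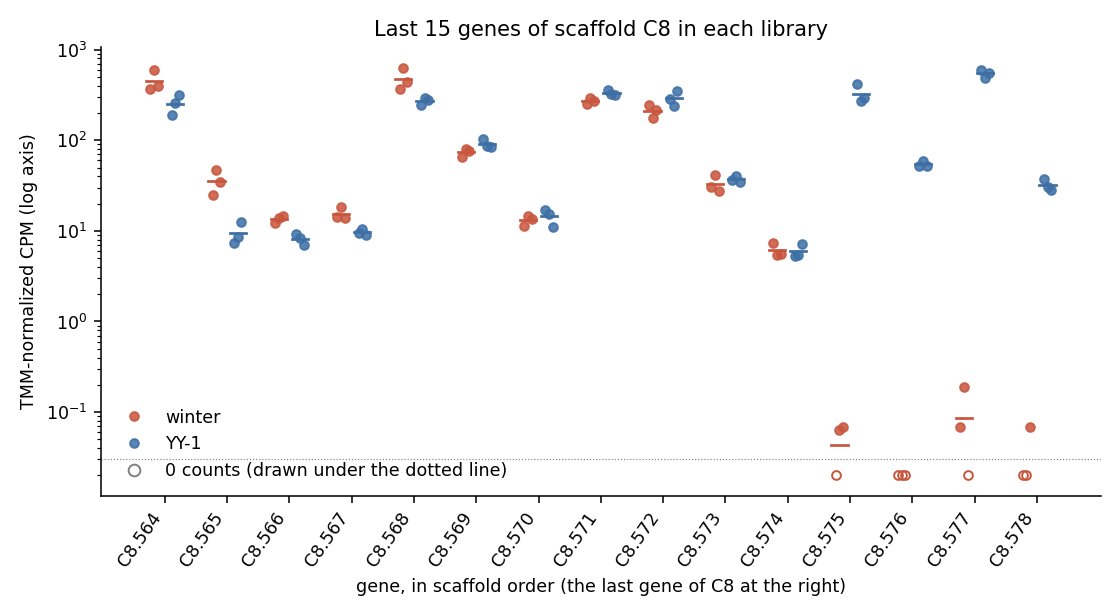
TMM-normalized CPM (log axis) of the last 15 genes of scaffold C8 in each library of winter and YY-1, in scaffold order, with short bars for strain means of at least 0.03 CPM and open circles for libraries with 0 counts. The outermost 4 genes lie between 28.6 and 602 CPM in YY-1 and at or below 0.190 CPM in winter, while the 6 genes before them were not called and the 5 before those were higher in winter.

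Further inward at the same end, the run C8.564 to C8.568 held 5 neighbouring genes that were all higher in winter, with log2 fold changes from 0.67 to 1.90. C8.565, listed under lyase activity, had 25.0, 46.5 and 34.3 CPM in winter, against 7.28, 8.65 and 12.6 CPM in YY-1 (log2 fold change 1.90 ± 0.27 SE, edgeR adjusted p = 0.000291). C8.568, listed under eukaryotic translation initiation factor 3, the complex that helps the small ribosomal subunit load the mRNA, had 369, 632 and 438 CPM in winter, against 248, 292 and 282 CPM in YY-1. Its log2 fold change was 0.81 ± 0.21 SE (edgeR adjusted p = 0.0102). C8.564 lost its call without YY-1 replicate a or without winter replicate b, where its adjusted p from edgeR was 0.0628 and 0.0577, and C8.567 with library totals alone (0.0516).

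At the first end of C8, a block of higher genes lay beside a block of lower genes. The higher block was C8.5 to C8.8, with log2 fold changes from 1.42 to 2.27. C8.7, which the study lists as a transcription factor gene, had 55.9, 64.9 and 53.1 CPM in winter, against 19.6, 20.05 and 25.2 CPM in YY-1 (log2 fold change 1.42 ± 0.16 SE, edgeR adjusted p = 7.83e-05). The other 3 genes of the block were chosen after their values had been seen. C8.5, listed under intramolecular oxidoreductase activity, had 36.1, 37.5 and 38.7 CPM in winter, against 9.75, 7.80 and 6.44 CPM in YY-1. C8.6 had 33.4, 45.0 and 35.9 CPM in winter, against 7.38, 7.71 and 8.62 CPM in YY-1. C8.8, listed under the nuclear exosome, the complex that degrades and trims RNA from its 3′ end, had 15.4, 19.4 and 15.6 CPM in winter, against 4.63, 2.48 and 3.53 CPM in YY-1. Every winter library was above every YY-1 library for all 4 genes, and all 4 were called with any library left out.

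The lower block was C8.10 to C8.14, 5 genes with log2 fold changes from -2.41 to -1.05. C8.14 had the largest change of this end, with 6.74, 4.56 and 6.03 CPM in winter, against 32.7, 26.2 and 33.5 CPM in YY-1 (log2 fold change -2.41 ± 0.20 SE, edgeR adjusted p = 1.07e-05). C8.13 had 12.7, 10.5 and 14.4 CPM in winter, against 23.2, 23.6 and 87.7 CPM in YY-1, so that its change of -1.84 rested partly on YY-1 replicate c, and without that library it was -0.90. C8.11 was below 4 CPM in all libraries and lost its call without winter replicate a or c. C8.1, the outermost gene, had overlapping values (log2 fold change -0.10 ± 0.17 SE, edgeR adjusted p = 0.660).

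The longest run of called neighbours at any end was C6.859 to C6.864 at the last end of C6, with 6 lower genes and log2 fold changes from -3.22 to -0.78. C6.861 had 8.84, 9.25 and 7.38 CPM in winter, against 69.5, 55.8 and 113 CPM in YY-1 (log2 fold change -3.22 ± 0.26 SE, edgeR adjusted p = 1.1e-05). C6.860 beside it had 25.4, 21.7 and 26.5 CPM in winter, against 135, 105 and 216 CPM in YY-1. C6.864 had 49.4, 54.6 and 43.6 CPM in winter, against 158, 161 and 216 CPM in YY-1. In these genes YY-1 replicate c was the highest library, and it stood above its strain's mean at this end by a median of 0.41 on the log2 scale. Without it the median of the end was -0.66, against -1.02 with all libraries, and the largest fall, in C6.861, was -2.88. C6.862 and C6.863, both below 9 CPM, lost their calls in 3 and 4 of the 6 fits that left out a library. The outermost gene of this end, C6.866, had 3.40, 2.72 and 5.69 CPM in winter, against 17.1, 13.8 and 20.9 CPM in YY-1 (log2 fold change -2.13 ± 0.28 SE, edgeR adjusted p = 0.000182). It was the outermost gene with the largest called change after C8.578 and C3.1.

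Before this run lay genes of both directions. C6.856 (log2 fold change -1.12) and C6.857 (-1.15) were lower, while C6.852, C6.855 and C6.858 were not called. C6.853 (log2 fold change 1.04) and C6.854 (1.86) were higher in winter, both chosen after their values had been seen, and C6.854 had 37.1, 40.6 and 36.4 CPM in winter, against 8.37, 9.60 and 13.6 CPM in YY-1. C6.855, with the second highest mean CPM of all end genes, had 674, 224 and 493 CPM in winter, against 525, 414 and 1092 CPM in YY-1. Its replicates differed by more than its strains, and it was not called (log2 fold change -0.55 ± 0.42 SE, edgeR adjusted p = 0.305).

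At the last end of C7, 5 neighbouring genes, C7.694 to C7.698, were lower, with log2 fold changes from -2.40 to -0.72, and all 5 calls held with any library left out. C7.695 had 1.16, 0.824 and 1.15 CPM in winter, against 5.22, 6.08 and 5.30 CPM in YY-1 (log2 fold change -2.40 ± 0.25 SE, edgeR adjusted p = 4.67e-05). C7.698 had 5.44, 3.61 and 5.15 CPM in winter, against 27.5, 21.7 and 18.2 CPM in YY-1 (log2 fold change -2.25). C7.694, at the inner edge of the run, was far more abundant, with 141, 130 and 142 CPM in winter, against 251, 220 and 209 CPM in YY-1, and fell by 0.72 on the log2 scale. The outermost gene, C7.703, had 1.36, 2.98 and 1.56 CPM in winter, against 4.13, 3.77 and 2.18 CPM in YY-1. Its values overlapped and it was not called (edgeR adjusted p = 0.0981), but it was called lower without YY-1 replicate c or winter replicate b.

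**Figure D4:**
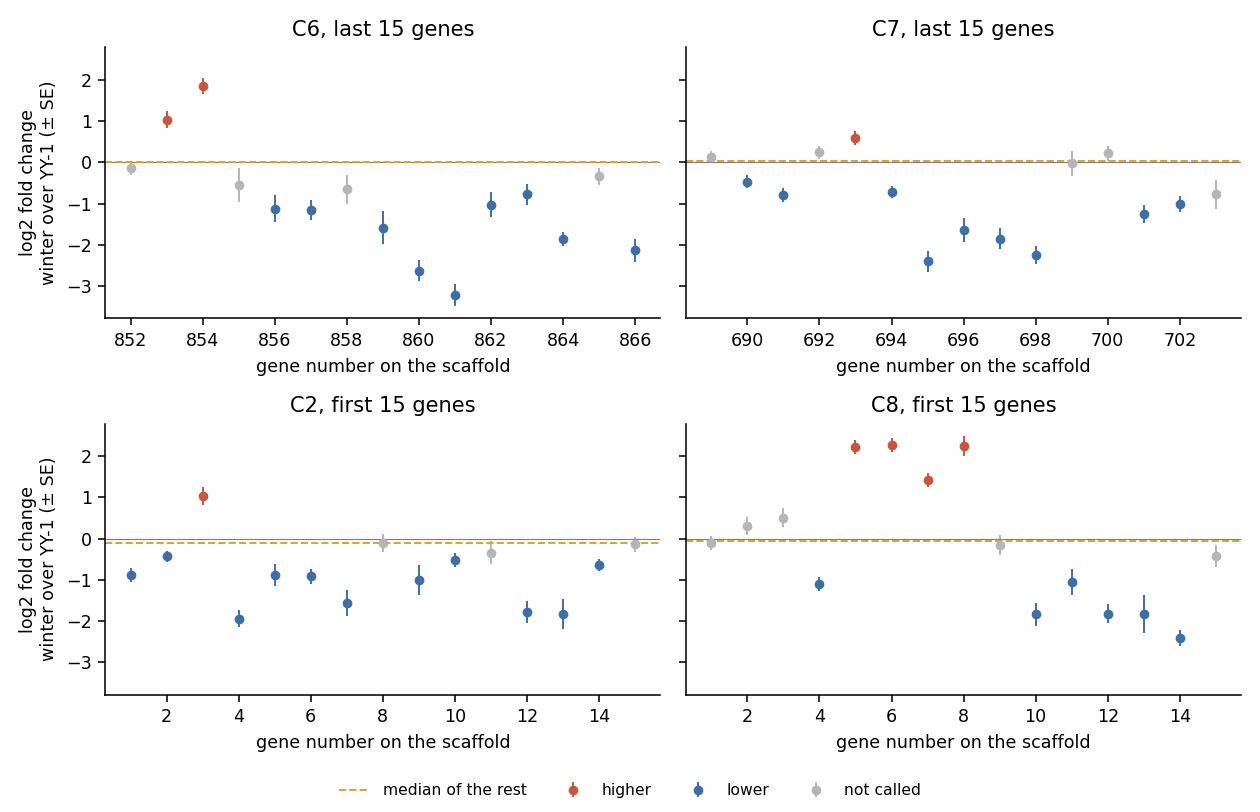
Log2 fold change (winter over YY-1, ± SE) by gene number at the last ends of C6 and C7 and the first ends of C2 and C8, coloured by call, with the median of the remainder of each scaffold as a dashed line. The runs C6.859 to C6.864 and C7.694 to C7.698 lie below -0.7 throughout, and at the first end of C8 the 4 higher genes C8.5 to C8.8 are followed by the 5 lower genes C8.10 to C8.14.

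At the first end of C2, 11 genes were lower and 1 was higher of 15. With a library left out, 7 to 10 genes were lower, the fewest without winter replicate c. C2.4 had 2.59, 2.34 and 2.44 CPM in winter, against 10.1, 8.05 and 10.3 CPM in YY-1 (log2 fold change -1.94 ± 0.21 SE, edgeR adjusted p = 5.04e-05), and it opened a run of 4 lower genes, C2.4 to C2.7, from -1.94 to -0.87. The outermost gene, C2.1, was abundant and lower, with 260, 203 and 241 CPM in winter, against 493, 378 and 430 CPM in YY-1 (log2 fold change -0.88 ± 0.18 SE, edgeR adjusted p = 0.0022). C2.5 lost its call without YY-1 replicate c, winter replicate b or winter replicate c. Without YY-1 replicate c the median of this end was -0.59, against -0.87 with it. At the other end of C2 the outermost gene, C2.1177, was also the gene with the largest change, with 4.01, 2.85 and 2.51 CPM in winter, against 7.48, 6.17 and 9.14 CPM in YY-1 (log2 fold change -1.28 ± 0.25 SE, edgeR adjusted p = 0.00204).

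At the last end of C4, 8 of the 12 kept genes were lower. C4.904 had 7.14, 3.10 and 3.79 CPM in winter, against 37.6, 28.8 and 37.8 CPM in YY-1 (log2 fold change -2.89 ± 0.28 SE, edgeR adjusted p = 3.12e-05). It belonged to the run C4.904 to C4.906, with log2 fold changes from -2.89 to -0.59. C4.902, the second lowest of all kept end genes in mean CPM, had 0.272, 0.190 and 0.271 CPM in winter, against 1.58, 1.46 and 1.45 CPM in YY-1 (log2 fold change -2.57 ± 0.38 SE, edgeR adjusted p = 0.000434). Its counts were 4, 3 and 4 in winter, against 16, 17 and 14 in YY-1, so that it too was kept through YY-1 alone. Between the lower genes and the outermost gene lay 2 higher genes chosen after their values had been seen, C4.911 (0.86) and C4.912 (0.88), the last listed under nucleotide binding. The outermost gene, C4.913, was not called, with 50.4, 56.3 and 50.3 CPM in winter, against 70.5, 65.3 and 58.4 CPM in YY-1 (log2 fold change -0.31 ± 0.14 SE, edgeR adjusted p = 0.092).

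On the other side of C4, at its first end, C4.3 was lower, with 3.61, 3.04 and 4.33 CPM in winter, against 26.0, 32.3 and 17.8 CPM in YY-1 (log2 fold change -2.79 ± 0.25 SE, edgeR adjusted p = 1.91e-05). The outermost gene, C4.1, had 125, 246 and 212 CPM in winter, against 684, 412 and 241 CPM in YY-1, so that its values overlapped. It was called lower (log2 fold change -1.20 ± 0.36 SE, edgeR adjusted p = 0.0189), but not without YY-1 replicate a, where the log2 fold change was -0.70 (adjusted p = 0.103 in edgeR). The count of genes called higher at this end was 4 with all libraries, 1 without YY-1 replicate c, 1 without winter replicate b, 2 without winter replicate c and 1 with library totals alone. YY-1 replicate c deviated from its strain's mean there by a median of -0.30 on the log2 scale, whose part in the count was not tested.

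The outermost genes of the first end of C3 were strongly higher. C3.1 had 37.1, 12.6 and 25.3 CPM in winter, against 1.38, 1.29 and 2.39 CPM in YY-1 (log2 fold change 3.90 ± 0.43 SE, edgeR adjusted p = 6.41e-05). C3.2 had 48.6, 17.5 and 31.5 CPM in winter, against 1.28, 1.54 and 3.53 CPM in YY-1 (log2 fold change 3.96 ± 0.44 SE, edgeR adjusted p = 7.27e-05). In both genes winter replicate a was the highest and winter replicate b the lowest of the winter libraries, and no winter value overlapped with YY-1. Without winter replicate a, the log2 fold change was 3.50 for C3.1 and 3.55 for C3.2. C3.8, listed under iron-sulfur cluster binding, and C3.11, listed under 3-beta-hydroxy-delta5-steroid dehydrogenase activity, were chosen after their values had been seen. C3.8 had 193, 189 and 210 CPM in winter, against 97.1, 102 and 86.9 CPM in YY-1, and C3.11 had 88.0, 78.4 and 90.3 CPM in winter, against 37.7, 30.5 and 37.4 CPM in YY-1. Right after them came the run C3.12 to C3.14 of 3 lower genes, with log2 fold changes from -2.01 to -0.72.

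The last end of C3 was the sparsest. Of its 15 genes, 9 were kept, and the 6 genes below the filter, C3.1029, C3.1030, C3.1032, C3.1033, C3.1034 and C3.1037, had mean levels of at most 0.683 CPM in winter and 0.296 CPM in YY-1. C3.1029 had 0 counts in every library. C3.1024, before these genes, had 14.3, 14.6 and 14.0 CPM in winter, against 188, 177 and 264 CPM in YY-1 (log2 fold change -3.87 ± 0.20 SE, edgeR adjusted p = 6.79e-07), and opened a run of 3 lower genes, C3.1024 to C3.1026. The outermost kept gene, C3.1036, had 1.50, 0.634 and 1.02 CPM in winter, against 1.58, 1.46 and 2.18 CPM in YY-1. Its values overlapped and it was not called (log2 fold change -0.72 ± 0.37 SE, edgeR adjusted p = 0.131).

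The first end of C5 held a strongly lower gene beside strongly higher ones. C5.11, chosen after its values had been seen, had 29.3, 19.6 and 28.6 CPM in winter, against 206, 163 and 286 CPM in YY-1 (log2 fold change -3.08 ± 0.25 SE, edgeR adjusted p = 1.01e-05). The next gene, C5.12, listed under serine-type endopeptidase activity, an enzyme class that cuts proteins, had 59.4, 99.3 and 81.8 CPM in winter, against 6.89, 6.68 and 8.83 CPM in YY-1 (log2 fold change 3.43 ± 0.23 SE, edgeR adjusted p = 3.15e-06). C5.13, listed under pathogenesis and also chosen after its values had been seen, had 847, 846 and 809 CPM in winter, against 114, 209 and 225 CPM in YY-1 (log2 fold change 2.19 ± 0.25 SE, edgeR adjusted p = 8.1e-05). The outermost gene, C5.1, was not called (log2 fold change 0.08 ± 0.16 SE, edgeR adjusted p = 0.721). C5.4, the end gene with the lowest mean CPM, had 0.884, 0.887 and 0.542 CPM in winter, against 1.08, 0.428 and 0.415 CPM in YY-1, and at this depth no difference was detectable (log2 fold change 0.27 ± 0.47 SE).

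At the last end of C5, no gene was called higher and 6 of 13 kept genes were lower. C5.825, which the study lists as a transcription factor gene, had 1.29, 1.20 and 1.02 CPM in winter, against 7.38, 5.57 and 6.23 CPM in YY-1 (log2 fold change -2.44 ± 0.24 SE, edgeR adjusted p = 3.56e-05). It was the gene with the largest change of this end and the next but one after the run C5.821 to C5.823, of which C5.823 alone was called with any library left out. Without YY-1 replicate a the median of this end was -0.32, against -0.59 with it. The outermost gene, C5.835, had 5.99, 8.49 and 6.64 CPM in winter, against 6.89, 4.54 and 5.92 CPM in YY-1, and was not called (log2 fold change 0.29 ± 0.23 SE, edgeR adjusted p = 0.316).

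The first end of C6 held 2 neighbouring genes that were strongly higher. C6.11 had 34.5, 21.2 and 31.9 CPM in winter, against 1.67, 2.06 and 2.49 CPM in YY-1 (log2 fold change 3.81 ± 0.26 SE, edgeR adjusted p = 3.78e-06). C6.10 beside it, chosen after its values had been seen, had 14.6, 8.68 and 14.7 CPM in winter, against 1.28, 1.63 and 1.77 CPM in YY-1 (log2 fold change 3.01 ± 0.29 SE, edgeR adjusted p = 2.61e-05). C6.10 is listed under sesquiterpene and trichodiene synthase activity, enzymes that fold farnesyl diphosphate into cyclic terpenes, trichodiene being the first intermediate of trichothecene toxins in *Fusarium*. C6.15, the end gene with the highest mean CPM, had 471, 623 and 469 CPM in winter, against 746, 839 and 703 CPM in YY-1 (log2 fold change -0.55 ± 0.18 SE, edgeR adjusted p = 0.0311), a call that was lost in 4 of the 6 fits that left out a library. The outermost gene, C6.1, was not called (log2 fold change -0.03 ± 0.14 SE, edgeR adjusted p = 0.887). The median of this end, 0.04, was -0.06 when libraries were scaled by their totals alone.

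At the first end of C7, the largest change was a fall, although more genes were higher than lower. C7.10 had 1.09, 1.33 and 1.22 CPM in winter, against 15.1, 11.8 and 9.45 CPM in YY-1 (log2 fold change -3.31 ± 0.25 SE, edgeR adjusted p = 8.32e-06), and with C7.11 and C7.12 it formed a run of 3 lower genes. C7.11 lost its call without YY-1 replicate a (adjusted p = 0.0823 in edgeR), winter replicate b (0.0555) or winter replicate c (0.0906), and the count of lower genes at this end, 4 with all libraries, was 2 without YY-1 replicate a or winter replicate c. C7.13, which the study places at the step between orange and yellow pigment, is the next gene in order. It had 4.22, 4.31 and 4.13 CPM in winter, against 3.15, 2.83 and 4.05 CPM in YY-1, and it was not called although its values did not overlap (log2 fold change 0.34 ± 0.22 SE, edgeR adjusted p = 0.228). On the other side of the run, C7.5 (log2 fold change 1.80) and C7.8 (1.46), chosen after their values had been seen, were higher. The outermost gene, C7.1, had 11.1, 14.4 and 12.5 CPM in winter, against 8.37, 8.22 and 4.98 CPM in YY-1 (log2 fold change 0.81 ± 0.22 SE, edgeR adjusted p = 0.0131). With library totals alone it missed the threshold (adjusted p = 0.0511 in edgeR).

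On C1, the largest scaffold by number of genes, the last end held the end gene with the strongest fall outside C8. C1.1273 had 0.884, 0.824 and 0.542 CPM in winter, against 25.9, 32.3 and 11.5 CPM in YY-1 (log2 fold change -4.94 ± 0.42 SE, edgeR adjusted p = 1.47e-05). Of the 14 kept genes of this end, 5 were lower and 0 were higher, and without YY-1 replicate a 3 were lower. The outermost gene, C1.1285, was not called (log2 fold change -0.30 ± 0.14 SE, edgeR adjusted p = 0.102). At the first end, C1.14 had 3.54, 2.53 and 3.39 CPM in winter, against 11.2, 13.7 and 11.2 CPM in YY-1 (log2 fold change -1.94 ± 0.21 SE, edgeR adjusted p = 5.58e-05). It lay in the run C1.13 to C1.15, which went on inward to 5 lower genes. C1.10, listed under DNA repair, and C1.2 were chosen after their values had been seen. C1.10 was higher, with 137, 71.4 and 105 CPM in winter, against 45.0, 42.8 and 63.9 CPM in YY-1, and C1.2 was lower, with 136, 160 and 142 CPM in winter, against 698, 613 and 345 CPM in YY-1. The outermost gene, C1.1, had 53.1, 39.9 and 47.4 CPM in winter, against 31.3, 23.5 and 38.5 CPM in YY-1 (log2 fold change 0.59 ± 0.20 SE, edgeR adjusted p = 0.0299), and lost its call without winter replicate a or c or YY-1 replicate a or b.

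**Figure D5:**
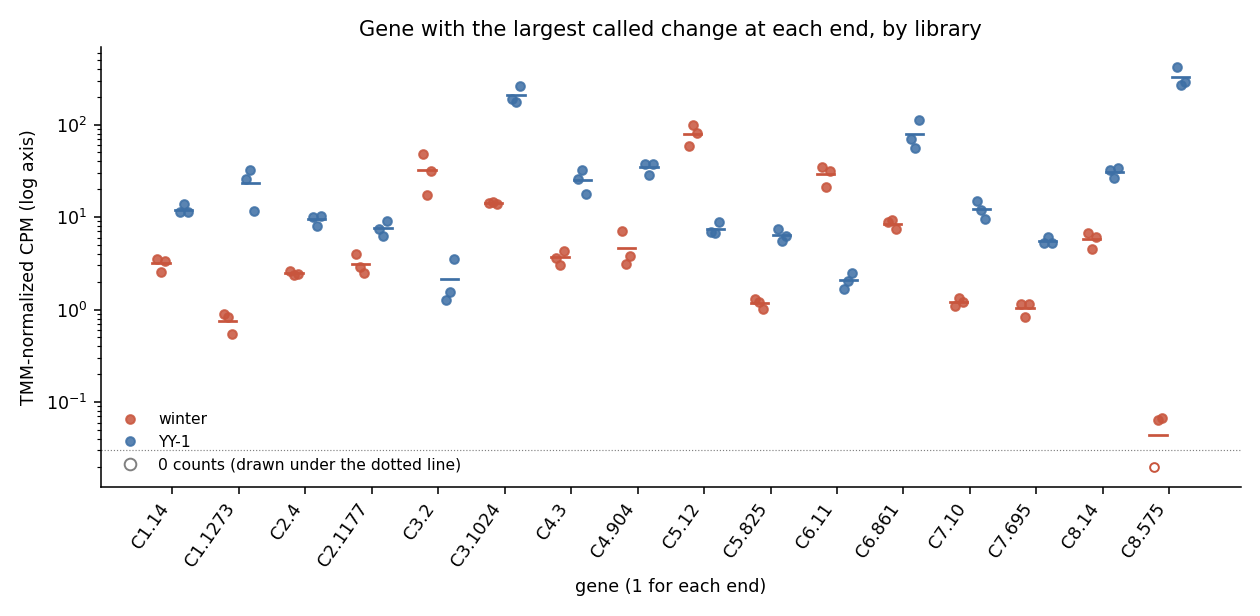
TMM-normalized CPM (log axis) in each library of winter and YY-1 for the gene with the largest called change at each of the 16 ends, with short bars for strain means and an open circle for a library with 0 counts. The genes were chosen for strains that do not overlap, and 3 are higher in winter (C3.2, C5.12 and C6.11) and 13 lower.

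Counted over the ends, 15 runs of 3 or more neighbouring genes called in the same direction were found, at 11 of the 16 ends. Of these runs, 13 were of lower genes and held 48 genes, and 2 were of higher genes and held 9 genes, both on C8. Among the lower runs was C8.575 to C8.578, whose 4 genes were kept through YY-1 alone and had to differ. Counted with runs that cross the inner border of an end, 59 of the 227 end genes (26.0%) stood in such a run, beside 12.96% of the genes in the remainder of C1 to C8, where the longest run had 9 genes. The share in runs depends on the share called, which for lower genes was 38.3% at the ends and 24.8% in the remainder. How much of the difference in runs goes with this was not tested. No test of the order of the genes was made.

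Fewer end genes than other genes passed the filter on counts. Of the 240 end genes, 13 (5.42%) were not kept, beside 111 of 7150 (1.55%) in the remainder of C1 to C8, and 12 of the 13 lay at last ends. Their highest count in any library was 12. For the kept genes, the median level was 19.7 CPM in winter and 22.4 CPM in YY-1 at the ends, beside 38.1 CPM in winter and 38.4 CPM in YY-1 in the remainder. In the next 15 genes inward it was 17.2 CPM in winter and 20.3 CPM in YY-1. These are levels in reads per gene, not divided by gene length, which was not analysed here, so that shorter genes and less RNA cannot be told apart. The lowest medians were at the last end of C5 (5.50 CPM in winter and 6.39 CPM in YY-1), at the last end of C7 (7.56 CPM in winter and 17.6 CPM in YY-1) and at the last end of C6 (8.49 CPM in winter and 17.3 CPM in YY-1). The highest was at the first end of C6 (63.3 CPM in winter and 66.6 CPM in YY-1). The spread between replicates was slightly wider at the ends, with a median coefficient of variation of 14.8% in winter and 18.2% in YY-1. In the remainder it was 12.9% in winter and 14.7% in YY-1. The next 15 genes inward, whose level was also low, had 13.9% in winter and 17.4% in YY-1. The part of the lower level in this spread was not tested.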

How the data were processed

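The authors mapped the cleaned reads with TopHat to the YY-1 gene models, counted them on unique exons with HTSeq, and deposited raw counts per gene without normalization. The submitters' processing notes name TopHat2 2.0.8b and HTSeq 0.5.4p2, while the methods of the study name other versions of both tools. In 2 of the 7491 rows a pair of gene models is joined, and neither row is an end gene. Whether the counting used strand is not given in the sources used here, so reads of overlapping genes cannot be told apart.

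Counts were scaled by TMM and tested with edgeR 4.0.16 (R 4.3.3), with filterByExpr (7355 genes kept), strain as the only term, and Benjamini-Hochberg adjustment over all tested genes. The test of the study, DESeq, was not used here. The SE is the absolute log2 fold change divided by the square root of F. The test was tried on simulated counts. No pair of libraries agreed within sampling noise.

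Named are the outermost kept gene and the gene with the largest called, non-overlapping change at each end, end genes the study names, the longest run of at least 3 neighbours called alike, and the end genes with the 2 highest and the 2 lowest mean CPM. Others are marked in the report as chosen after their values had been seen. The ends, lists and rule were chosen with earlier results of these data known. No gene identifier matched the reference table of another strain (0 matches), so no names, lengths, coordinates or sequences are given.

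The correlation of the deviations from the strain means, across 7355 genes, was 0.101 for the libraries a, 0.3 for b and 0.125 for c. It was 0.208 for winter c with YY-1 a, so that the letters do not mark the closest libraries throughout, and the labels state no pairing. The letter was used as a replicate block in an alternative. Other alternatives were DESeq2 1.42.0, other size factors, other filters on low counts, stricter thresholds, other lengths of an end, and each library left out. The study calls the libraries independent biological replicates.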

Additional observations from a re-analysis of the deposited data

How the results depend on the processing

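With the replicate block, 43 end genes were higher and 91 lower with a median log2 fold change of -0.30, and it changed the call of no named gene. When 1 library at a time was left out, 34 to 39 end genes were higher and 71 to 85 lower, with a median between -0.31 and -0.24, and 1250 to 1614 of all tested genes were higher and 1416 to 1889 lower. A threshold of 0.01 left 1073 higher genes in the whole table. A change of more than 2-fold left 21 higher end genes and 656 higher and 884 lower genes in the whole table. With library totals alone, the median of all tested genes moved to -0.13 and that of the end genes to -0.39, with 31 end genes higher and 93 lower. The length of an end changed the counts by construction. With 5 genes at each end, 11 were higher and 28 lower of 77 tested (14.3% and 36.4%). With 10 genes it was 22 and 55 of 151 (14.6% and 36.4%). With 20 genes it was 62 and 108 of 306 (20.3% and 35.3%). With 30 genes it was 88 and 157 of 463 (19.0% and 33.9%). Of all tested genes, 22.5% were higher and 25.5% lower. The median was -0.18 with 20 and with 30 genes.

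Of 91 named genes, 79 were called, and 18 changed their call or sign in some alternative, 13 of them by losing the call and 1 by gaining it. The sign turned for uncalled genes near 0. C5.1 was -0.026 with library totals and between -0.023 and 0.22 with a library left out. C6.1 was 0.0014 with DESeq2's size factors, 0.0030 in DESeq2's Wald test and between -0.073 and 0.020 with a library left out. C8.1 ranged from -0.18 to 0.049 and C8.574 from -0.11 to 0.19 with a library left out, and C8.574 was -0.052 with library totals. The medians of the first ends of C1 and C4 and of the last end of C2, all within 0.15 of 0, changed sign with a library left out, and that of the first end of C6 without YY-1 replicate c, with upper-quartile factors (-0.0041) or with library totals. At the first end of C6, 0 to 3 genes were called lower with a library left out (0 without YY-1 replicate a or winter replicate c, 1 without YY-1 replicate b), and at the last end of C5, 3 to 7 (3 without winter replicate a). Depth limits the genes with few reads, such as C5.4, whose SE was 0.47 on the log2 scale at a mean of 0.707 CPM.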
